A study of Mus musculus with 36 samples.

Results

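The ryanodine receptor release complex is described here by 10 genes, chosen by symbol: the channel Ryr2, its luminal and junctional partners Casq2, Hrc, Trdn and Asph, its regulators Fkbp1b and Sri, the IP3 receptors Itpr1 and Itpr2, and the exchanger Slc8a1. All 10 were among the 55291 gene symbols of the files, and all 10 were among the 19231 that passed the filter on low counts in the main fit. Atria and left ventricles of CUG960 mice were profiled in 6 cohorts of 3 animals each, which makes 36 libraries in 12 groups. Every animal, the –dox controls included, carried TREDT960I, a tetracycline-responsive transgene with an expanded, interrupted CTG repeat in the human DMPK gene, together with MHCrtTA, in which the Myh6 promoter places the tetracycline transactivator in cardiomyocytes. The +dox cohort had doxycycline from postnatal day 1 and so made the CUG repeat RNA throughout, the –dox cohort never had it, and the +/–dox cohort was taken off it at 9 weeks. The remaining animals were kept on doxycycline and given AAV9 by tail vein at 9 weeks, in which the human TNNT2 promoter drove FLAG-tagged MBNL1 (the MBNL1 cohort), MYC-tagged MBNL2 (MBNL2) or both (MBNL1+MBNL2). All tissue was collected at 21 weeks, 12 weeks after the change. A cohort given a control vector was not analysed here, so vector delivery and MBNL expression cannot be told apart in the MBNL cohorts. No cohort was on doxycycline at collection without the repeat RNA, so the repeat RNA and doxycycline itself cannot be told apart either. According to the study's sample list, each cohort but MBNL1+MBNL2 included a female, and sex was not modelled.

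In a heart cell, calcium that enters through L-type channels during the action potential opens RYR2 in the facing membrane of the sarcoplasmic reticulum, and the calcium released from the store drives contraction. Inside the store calsequestrin (Casq2) buffers calcium beside the channel, held there by triadin (Trdn) and by junctin, one of the proteins of the Asph gene, while FKBP12.6 (Fkbp1b) and sorcin (Sri) bind the channel from the cytosol and the sodium-calcium exchanger (Slc8a1) removes calcium from the cell. In myotonic dystrophy type 1 the CUG repeat RNA sequesters MBNL proteins, which regulate alternative splicing and RNA processing, and arrhythmia is a common cardiac feature of the disease.

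The libraries held between 55.03 and 97.09 M expected counts (M, a count in units of 10 to the power of 6), and each member but one rested on at least 1129 expected counts in every library. The exception was Fkbp1b, with 12 to 154. Replicates of a group differed by more than the noise of sampling, with a chi-square per degree of freedom of at least 10.31 over 36 pairs, so no library was taken as a duplicate. The chambers carried their labels: the summed level of 4 ventricular markers was 24560 to 27770 TPM in +dox ventricles and 78.1 to 121 TPM in +dox atria. In –dox atria that sum ran from 56.9 to 827 TPM. Ventricle MBNL1 replicate 1 had 16885 symbols above 0 against 20578 to 24041 in the other libraries. Ventricle +dox replicate 3 had the highest interferon gene sum of its group, 30.7 TPM against a lowest of 9.2, though ventricles of other cohorts reached 51.6 TPM. Leaving out both libraries added Casq2 to the called members of –dox ventricles (4) and of +/–dox ventricles (3) and moved no other count of called members. Itpr2 then no longer passed the adjusted p in MBNL1+MBNL2 against +dox ventricles (0.054), MBNL1 against +/–dox ventricles (0.27) or between +dox chambers (0.060). The sum of 5 cardiomyocyte markers was 33990 to 35930 TPM in +dox and 36860 to 39020 TPM in –dox ventricles, and none of the 5 was called between these cohorts. In +/–dox mice 1 of the 5 was called higher than in +dox in each chamber, and 1 of the 4 ventricular markers was called higher in –dox and in +/–dox ventricles. Since the tissue was bulk, fewer cells of a type and less RNA per cell cannot be told apart. By the leading digits of their names the libraries form 2 sets, the first with replicates 1 and 2 of all cohorts but MBNL1+MBNL2 and the second with the rest, so MBNL1+MBNL2 mice lie wholly in the second.

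A member was called when its adjusted p-value from edgeR's quasi-likelihood test was below 0.05 and its fold change was at least 1.5. In the ventricle, –dox against +dox mice, 3 of 10 members were called, Ryr2 and Itpr2 higher and Asph lower in –dox, beside 7.6% of all genes tested. Itpr2 was lost there without –dox replicate 1, and Casq2 was gained without +dox replicate 3 or –dox replicate 2. On the TPM scale 2 members were called, with Asph and Itpr2 under the fold threshold and Casq2 past it. Ventricles of +/–dox mice had 2 called members, Ryr2 higher and Asph lower, with 6.6% of all genes, and without +/–dox replicate 3 Casq2 and Itpr2 were called there as well, making 4. In the atria 2 members were called in –dox mice (5.23% of all genes) and the same 2 in +/–dox mice (3.99%), Ryr2 higher and Casq2 lower. The median absolute log2 fold change of the 10 members was 0.43 in ventricles and 0.42 in atria of –dox mice, against 0.27 and 0.25 over all genes tested, and the signed median was -0.18 and -0.07, against 0.01 and 0.03. By the adjusted p-value alone 6 members differed in –dox ventricles (20.9% of all genes), 5 in +/–dox ventricles (21.8%), 5 in –dox atria (15.9%) and 4 in +/–dox atria (12.6%). The –dox and +/–dox comparisons share the +dox libraries, so a like pattern in both is not independent.

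**Figure D1:**
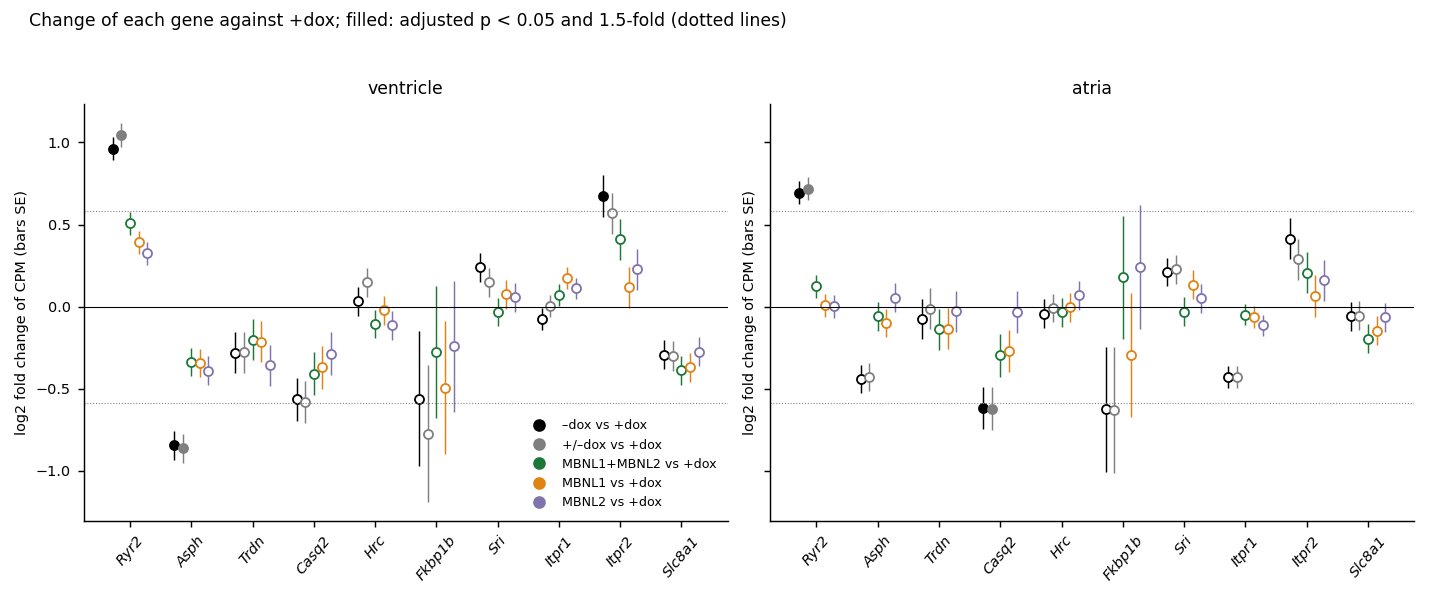
Log2 fold change of each of the 10 members against +dox mice, from edgeR's quasi-likelihood fit on TMM-normalised counts, in ventricle and atria, with bars of 1 SE and filled points where called. Ryr2 lies above 0 and Asph below 0 in –dox and +/–dox mice of both chambers, and Ryr2 lies between 0 and its –dox value in ventricles of the MBNL cohorts but at 0.00 to 0.12 in their atria.

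Ryr2, the release channel itself (GRCm38 chr13:11553102-12106945, minus strand), was higher wherever the repeat RNA was off. The ventricular level was 79.5, 77.6 and 79.3 TPM in the +dox replicates, 141, 153 and 145 TPM in –dox and 162, 156 and 157 TPM in +/–dox mice. The lowest ventricle without the repeat RNA was thus well above the highest +dox ventricle. In the atria Ryr2 was at 119, 132 and 124 TPM in +dox, 196, 193 and 188 TPM in –dox and 187, 193 and 199 TPM in +/–dox mice, again with no overlap. The log2 fold change over +dox was 0.96 (SE 0.071, adjusted p = 2.2e-11) in –dox and 1.05 in +/–dox ventricles, and 0.69 and 0.72 in the atria. The ventricle changed by 0.27 more than the atria on the log2 scale in –dox mice and by 0.33 more in +/–dox mice, but neither difference passed (adjusted p = 0.23 and 0.12, test of the difference between chambers). The –dox and +/–dox cohorts did not differ in Ryr2 in either chamber by this test.

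In ventricles of the MBNL cohorts Ryr2 lay between the +dox level and that without the repeat RNA. It was at 105, 98.1 and 111 TPM with MBNL1, 114, 106 and 104 TPM with MBNL2 and 112, 120 and 116 TPM with both. All 9 of these libraries lay above every +dox ventricle and below every –dox and +/–dox ventricle. Over +dox the log2 fold change was 0.39 with MBNL1 (adjusted p = 0.00076), 0.33 with MBNL2 (adjusted p = 0.0050) and 0.51 with both (adjusted p = 1.7e-05), each under the 1.5-fold threshold. With only the 6 libraries compared in the fit, the adjusted p for MBNL1 was 0.054. Against +/–dox ventricles Ryr2 was lower by 0.66 (MBNL1) and 0.72 (MBNL2) on the log2 scale, both called, and differed by -0.54 with both vectors, which passed the adjusted p but not the fold.

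In the atria that intermediate level was not seen with MBNL1 or MBNL2 alone. Ryr2 was at 123, 124 and 131 TPM with MBNL1, 118, 122 and 127 TPM with MBNL2 and 136, 143 and 143 TPM with both, against 119 to 132 TPM in +dox atria. The MBNL1 and MBNL2 values overlapped those of +dox, and the log2 fold changes were 0.01, 0.00 and 0.12, none past the test. The 3 MBNL1+MBNL2 atria lay above the 3 +dox atria in TPM and below every –dox and +/–dox atrium. The difference between chambers in the vector response of Ryr2 was 0.38 with MBNL1, 0.32 with MBNL2 and 0.38 with both, and none passed (adjusted p = 0.27, 0.20 and 0.16). Against +/–dox atria, Ryr2 was called lower with every vector, by 0.71, 0.72 and 0.60 on the log2 scale.

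**Figure D2:**
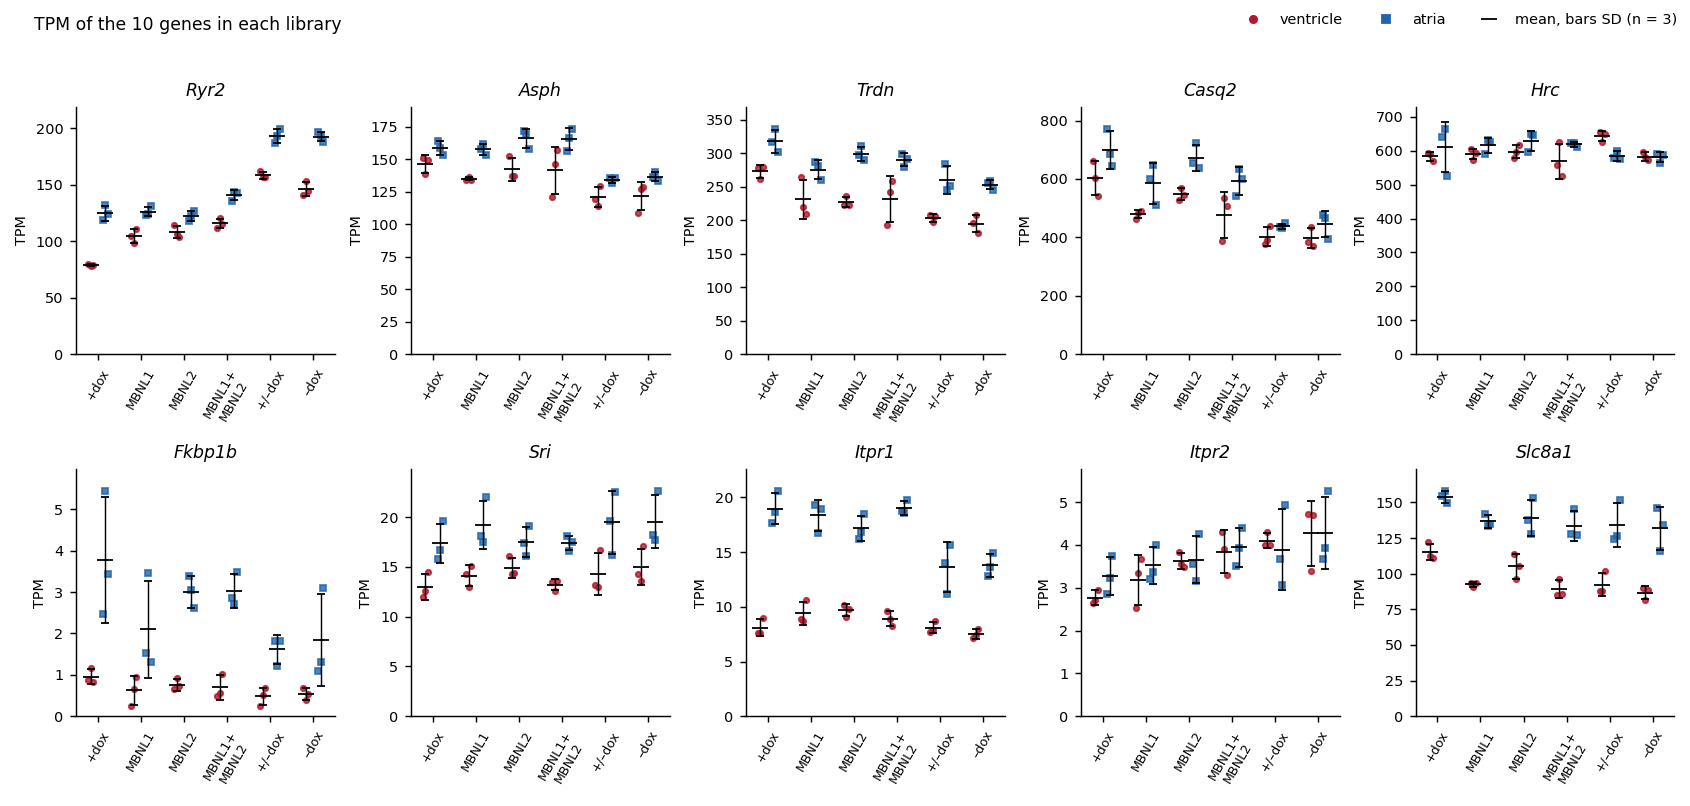
TPM of the members in each library, by chamber and cohort, with the mean and SD of the 3 libraries of a group. Ventricular Ryr2 steps from 77.6 to 79.5 TPM in +dox mice through 98.1 to 120 TPM in the MBNL cohorts to 141 to 162 TPM in –dox and +/–dox mice, while Hrc stays between 524 and 664 TPM throughout.

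Casq2 (chr3:102086415-102146514, plus strand), the calcium buffer of the store, went the other way. In ventricles it was at 661, 603 and 543 TPM in +dox, 385, 436 and 370 TPM in –dox and 377, 392 and 438 TPM in +/–dox mice. In the atria it was at 770, 685 and 645 TPM in +dox, 476, 465 and 394 TPM in –dox and 434, 433 and 448 TPM in +/–dox mice. Every +dox library was above every library of the other cohorts of that chamber that lacked the repeat RNA. The log2 fold change in –dox mice was -0.57 in the ventricle (adjusted p = 0.0020, under the 1.5-fold threshold) and -0.62 in the atria. The atrial call was near the threshold and was lost without +dox replicate 1 or without –dox replicate 3, and that in +/–dox atria without +dox replicate 1. With both vectors ventricular Casq2 differed from +dox by -0.41 (adjusted p = 0.046), with values of 387, 536 and 506 TPM, and library set as a term gave -0.26 (adjusted p = 0.12). It also failed with DESeq2 size factors (adjusted p = 0.061), with no filter on low counts (0.10) and with only the 6 libraries compared (0.17). The same held without replicate 1 or 2 of either cohort.

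Hrc (chr7:45335290-45338974, plus strand), a histidine-rich calcium-binding protein of the store that binds triadin, passed the test in no comparison of cohorts. Its level was 593, 591 and 569 TPM in +dox and 597, 581 and 572 TPM in –dox ventricles. The groups overlapped, with a log2 fold change of 0.03 (SE 0.088). In the atria the log2 fold change was -0.04 in –dox and -0.01 in +/–dox mice.

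Trdn (chr10:33080554-33476709, plus strand), which anchors calsequestrin to the channel, did not pass the count test against +dox in any cohort, but its 2 scales differed. The count-based log2 fold change in –dox mice was -0.28 in the ventricle (adjusted p = 0.11) and -0.08 in the atria. Per length the ventricular level was 278, 262 and 280 TPM in +dox and 195, 207 and 181 TPM in –dox mice, with no overlap. The atrial level was 316, 336 and 301 TPM in +dox against 256, 258 and 246 TPM in –dox mice, again apart. The transcripts behind these values were of unequal length, as measured below.

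Asph (chr4:9448069-9669344, minus strand) encodes aspartyl beta-hydroxylase, and shorter transcripts of the same gene encode junctate and junctin, of which junctin joins triadin and calsequestrin at the channel. The log2 fold change in counts was -0.85 (SE 0.086, adjusted p = 2.0e-08) in –dox and -0.86 in +/–dox ventricles, and -0.44 (adjusted p = 0.00048) and -0.43 in the atria, the atrial changes under the 1.5-fold threshold. On the TPM scale the same ventricular changes were -0.27 (adjusted p = 0.0092, limma) and -0.28, and the atrial ones -0.21 and -0.24. The TPM values of ventricles were 151, 138 and 149 in +dox, 109, 127 and 129 in –dox and 119, 114 and 129 in +/–dox mice. In atria they were 164, 158 and 153 in +dox, 136, 140 and 133 in –dox and 135, 131 and 135 in +/–dox mice. Neither chamber had an overlap between +dox and the cohorts without the repeat RNA. Clvs1, which overlaps Asph on the opposite strand, reached at most 2.38 TPM, against at least 109 TPM for Asph.

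Counts and TPM of Asph differ by the length of its transcripts. Within a library the ratio of a gene's expected count to its TPM is proportional to the effective length of its transcripts, weighted by their abundance. That ratio, scaled on 113 genes with 1 annotated transcript, gives a length in bases for each library. Asph had an effective length of 3626, 3690 and 3802 bases in +dox ventricles, 2465, 2345 and 2494 bases in –dox and 2431, 2467 and 2507 bases in +/–dox ventricles. The repeat RNA thus went with a longer mean Asph transcript, with no overlap. In the atria the length was 4024, 4053 and 4049 bases in +dox, 3377, 3397 and 3361 bases in –dox and 3419, 3419 and 3436 bases in +/–dox mice.

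The log2 change of the Asph length in –dox mice was -0.61 in the ventricle (adjusted p = 4.8e-12, limma) and -0.26 in the atria (adjusted p = 1.4e-05). The 2 chambers differed by -0.35 in this change in both –dox (adjusted p = 0.00077) and +/–dox mice (adjusted p = 0.00088), a length change larger in the ventricle. That test did not pair the chambers of an animal. Without the repeat RNA the ventricular transcripts were also shorter than the atrial ones, by 0.47 on the log2 scale in –dox mice. With the vectors the ventricular length was 3179, 3168 and 3452 bases (MBNL1), 2998, 3304 and 3421 bases (MBNL2) and 3079, 3364 and 3126 bases (both). All 9 lay below every +dox and above every –dox ventricle. These were log2 changes of -0.19, -0.20 and -0.23, each past the test (adjusted p = 0.0028, 0.0021 and 0.00022). In the atria of the MBNL cohorts the mean length was 3829, 3919 and 3882 bases and no change passed.

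The lengths that such a mean can draw on differ by the end of the coding sequence. The last 60 bases of 4 alternative Asph coding sequences are shown because they set apart the proteins of the locus, with the sequence from GENCODE M21 transcripts on GRCm38, read on the minus strand of chromosome 4, 5′ to 3′, and the stop codon in capitals.
Asph-205 and Asph-217: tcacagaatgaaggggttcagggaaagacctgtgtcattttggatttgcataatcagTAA
Asph-201 and Asph-206: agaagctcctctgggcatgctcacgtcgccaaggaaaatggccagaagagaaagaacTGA
Asph-204 and 4 others: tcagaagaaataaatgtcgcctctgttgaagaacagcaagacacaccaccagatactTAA
Asph-202, Asph-211 and Asph-212: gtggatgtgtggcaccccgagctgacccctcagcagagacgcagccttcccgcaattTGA
The last of these, with its stop codon at chr4:9453295-9453297, ends the coding sequence of 1977 to 2226 bases in transcripts of 6453 to 6694 bases. Asph-201 and Asph-206 stop at chr4:9621880-9621882, after 624 to 738 coding bases in transcripts of 1174 to 1762 bases. Asph-204, with Asph-207, Asph-208, Asph-209 and Asph-210, has 2514 to 2884 bases. An effective length is the transcript length less an offset, which was 205 to 249 bases in these libraries. With the offset added, the 2435 base mean of –dox ventricles falls in the span of the Asph-204 class. The 3706 base mean of +dox ventricles lies between that class and the longest. A mean can arise from several mixtures, and the files, which give genes, do not say which transcripts changed.

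**Figure D3:**
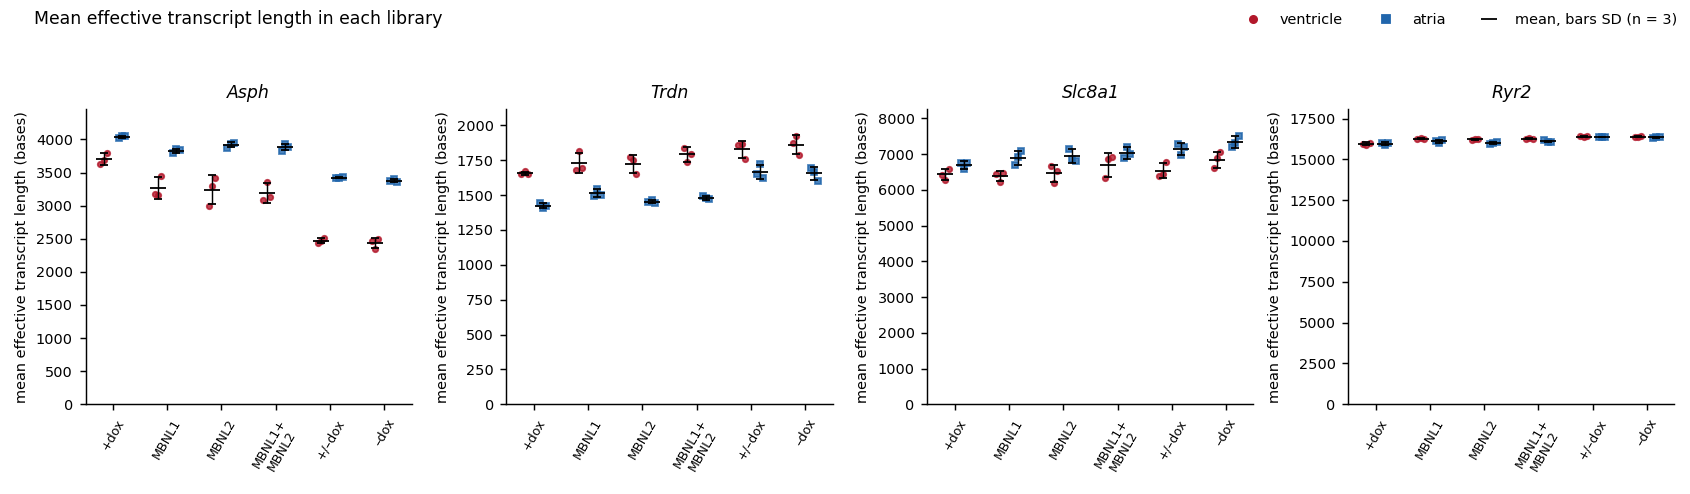
Effective transcript length in bases, from the ratio of expected count to TPM, of Asph, Trdn, Slc8a1 and Ryr2 in each library by chamber and cohort, with the mean and SD. Asph falls from 3706 ± 89.0 (SD, n = 3) bases in +dox ventricles to 2435 ± 79.0 bases in –dox ventricles, with the MBNL cohorts between, and Trdn rises in both chambers.

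Of the 8 members with enough signal for a length (all but Fkbp1b and Itpr2), 2 had a changed length in –dox ventricles beside 0.981% of the 9070 genes tested and 2 in +/–dox ventricles (1.17%), Asph and Trdn in both. A changed length needed an adjusted p below 0.05 and a log2 change of at least 0.1. Ryr2 passed only the adjusted p, longer by 0.033 and 0.032 in –dox and +/–dox ventricles and by 0.032 and 0.028 in atria (adjusted p = 0.00011, 0.00013, 0.00024 and 0.00097, limma). It also did so by 0.023 in MBNL1 ventricles (adjusted p = 0.018), which failed in 2 of 6 fits that left out 1 library. Trdn transcripts were longer without the repeat RNA: the effective length in ventricles was 1650, 1671 and 1649 bases in +dox and 1876, 1924 and 1786 bases in –dox mice, and in atria 1441, 1404 and 1425 against 1695, 1669 and 1603 bases. The log2 change was 0.16 in the ventricle (adjusted p = 0.0088) and 0.21 in the atria. The –dox ventricular Trdn length was no longer called without –dox replicate 1 or 2, nor that of +/–dox ventricles (0.13) without replicate 1 or 2 of either cohort.
Trdn-201: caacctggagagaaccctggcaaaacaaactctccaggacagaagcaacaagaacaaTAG
Trdn-208: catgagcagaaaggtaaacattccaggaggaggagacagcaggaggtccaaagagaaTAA
These are the last 60 coding bases of 2 Trdn transcripts (GENCODE M21, plus strand, stop codon in capitals). They are shown since their coding lengths of 2082 and 834 bases differ more than the transcripts of 4514 and 4149 bases that carry them. The effective lengths of Trdn lie below both transcripts, so this pair alone cannot give those means. Shorter coding transcripts are annotated too, among them Trdn-202 of 1182 and Trdn-207 of 1088 bases. Which transcripts changed is not known. In –dox atria Slc8a1 also had a changed length (0.13, adjusted p = 0.029), which made 3 members there (0.805% of genes) but was lost in 5 of 6 fits that left out 1 library, all but that without –dox replicate 1, and +/–dox atria had 2 (0.772%). Asph was the 1 member with a changed length in MBNL1 (0.65%), MBNL2 (0.209%) and MBNL1+MBNL2 ventricles (0.419%), and no member had one in the atria of these cohorts (0.0662%, 0.011% and 0.0772%). Between –dox ventricles and atria 2 members differed in length, Asph and Trdn (0.739%). The test of the difference between chambers was passed by Asph in –dox (0.011%) and +/–dox mice (0.0221%), and by no member or other gene in the MBNL cohorts (0%).

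Fkbp1b (chr12:4833174-4841591, minus strand), which encodes FKBP12.6, was the least abundant member. It was at 0.87, 1.16 and 0.84 TPM in +dox and 0.69, 0.40 and 0.55 TPM in –dox ventricles, and at 2.46, 5.43 and 3.43 TPM against 1.09, 1.3 and 3.11 TPM in atria. Its log2 fold change was -0.56 (SE 0.41) in ventricles and -0.63 in atria and did not pass in either, so a change was not detectable at this depth. Its paralog Fkbp1a, which encodes FKBP12, was at 95.7 ± 6.36 TPM (SD, n = 3) in +dox ventricles and at 81.0 ± 8.19 TPM in –dox ventricles. Sri (chr5:8046078-8069379, plus strand) was at 12.0, 12.6 and 14.5 TPM in +dox and 14.3, 13.6 and 17.1 TPM in –dox ventricles, values that overlapped. Its log2 fold change of 0.24 had an adjusted p of 0.0497, which no longer passed in a fit without the filter on low counts (0.12), or without +dox replicate 1 or 2 or –dox replicate 1 or 3.

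Itpr1 (chr6:108213096-108551109, plus strand), an IP3-gated release channel, changed in the atria. Atrial Itpr1 was at 17.7, 18.7 and 20.5 TPM in +dox, 12.8, 13.6 and 14.9 TPM in –dox and 14.03, 11.2 and 15.7 TPM in +/–dox mice, with +dox above all others. Its log2 fold change was -0.43 in both (adjusted p = 2.2e-05 in –dox mice), under the 1.5-fold threshold. In ventricles it was at 7.65, 7.64 and 9.00 TPM in +dox and 7.14, 7.42 and 7.97 TPM in –dox mice, overlapping, with a log2 fold change of -0.08. The difference between chambers was 0.43 in +/–dox mice and passed (adjusted p = 0.022), and was 0.35 in –dox mice and did not (adjusted p = 0.054). The +/–dox difference no longer passed in 6 of 12 fits that each left out 1 library (ventricle +dox replicate 1, ventricle +/–dox replicate 2 or 3, atria +dox replicate 1 or 2, atria +/–dox replicate 2), nor on the TPM scale (adjusted p = 0.097, limma). By the adjusted p-value alone Itpr1 in +/–dox mice was the 1 member of 10 with such a difference, beside 0.692% of all genes. No member had one in –dox (1.03%), MBNL1 (0.0312%), MBNL2 (0.0364%) or MBNL1+MBNL2 mice (0.0728%), and with the fold threshold no member had one in –dox (0.764%) or +/–dox mice (0.489%).

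Itpr2 (chr6:146108299-146502223, minus strand), the other IP3 receptor among the members, was higher in ventricles without the repeat RNA. It was at 2.65, 2.71 and 2.96 TPM in +dox, 4.73, 3.40 and 4.69 TPM in –dox and 4.01, 4.30 and 3.99 TPM in +/–dox ventricles, with no overlap. It was higher by 0.67 (adjusted p = 0.00022) in –dox and 0.57 (adjusted p = 0.0015) in +/–dox mice on the log2 scale. In atria it was at 2.85, 3.23 and 3.75 TPM in +dox and 3.67, 3.92 and 5.25 TPM in –dox mice, which overlapped, with a log2 fold change of 0.41 (adjusted p = 0.022) that did not pass with the first library set alone (0.096), or without +dox replicate 1 or 2 or –dox replicate 3. With both vectors ventricular Itpr2 was at 4.31, 3.91 and 3.31 TPM, above all +dox ventricles, with a log2 fold change of 0.41 (adjusted p = 0.038). This no longer passed with no filter (0.055), with library set as a term (0.099), with only the 6 libraries compared (0.087) or on the TPM scale (0.12), nor in 5 of 6 fits that left out 1 library, all but that without MBNL1+MBNL2 replicate 3.

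Slc8a1 (chr17:81373105-81738377, minus strand), the exchanger that removes calcium between beats, was lower than in +dox ventricles in 4 of the 5 other cohorts. Its ventricular level was 122, 113 and 111 TPM in +dox, 89.9, 81.7 and 88.6 TPM in –dox and 87.8, 87.5 and 102 TPM in +/–dox mice, with no overlap. The count-based log2 fold change was -0.29 in –dox (adjusted p = 0.017), -0.30 in +/–dox, -0.37 with MBNL1 (adjusted p = 0.0088) and -0.39 with both vectors (adjusted p = 0.0051), all under the 1.5-fold threshold. It no longer passed in –dox mice without +dox replicate 1 or –dox replicate 3, or in +/–dox mice without +dox replicate 1 or +/–dox replicate 1 or 2, nor with MBNL1 without +dox replicate 1, nor with both vectors without MBNL1+MBNL2 replicate 1. With only the 6 libraries compared the adjusted p was 0.0997 with MBNL1 and 0.075 with both. With MBNL2 it was -0.27 and did not pass (adjusted p = 0.053), with values of 114, 96.5 and 106 TPM that overlapped +dox. In the atria the log2 fold change was -0.06 in both –dox and +/–dox mice and did not pass.

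The mean ratio of each other member to Ryr2 was lower without the repeat RNA. Ryr2 itself was higher there, by 0.89 on the log2 scale of TPM in –dox ventricles, so the ratio of an unchanged gene falls by as much. Hrc, at a mean of 584 TPM in +dox and 583 TPM in –dox ventricles, had a log2 ratio change of -0.89. The ratios are thus not a result apart from the change of Ryr2. Per molecule of Ryr2 RNA, on the TPM scale, Casq2 was at 8.32, 7.78 and 6.85 in +dox ventricles and at 2.74, 2.84 and 2.56 in –dox ventricles. In the atria that ratio was 6.49, 5.19 and 5.21 against 2.42, 2.41 and 2.10. No +dox library overlapped a –dox library. The mean ratio to Ryr2 in ventricles went from 7.42 to 3.99 for Hrc, from 3.47 to 1.33 for Trdn, from 1.86 to 0.829 for Asph and from 1.46 to 0.595 for Slc8a1 (+dox to –dox). In the atria it went from 4.89 to 3.02 for Hrc, from 2.55 to 1.32 for Trdn, from 1.27 to 0.709 for Asph and from 1.24 to 0.685 for Slc8a1. With 3 libraries against 3, a two-sided exact permutation test cannot give a p below 0.1, and each of these ratios gave that value in each chamber (0.109 after adjustment over the 36 ratios tested). For Itpr2, which rose with Ryr2 in ventricles, the –dox and +dox ratios overlapped in both chambers (exact permutation p = 0.2 and 0.3). In counts the Asph ratio fell further and the Trdn ratio less far, by 1.81 and 1.25 on the log2 scale in –dox ventricles against 1.16 and 1.38 in TPM.

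**Figure D4:**
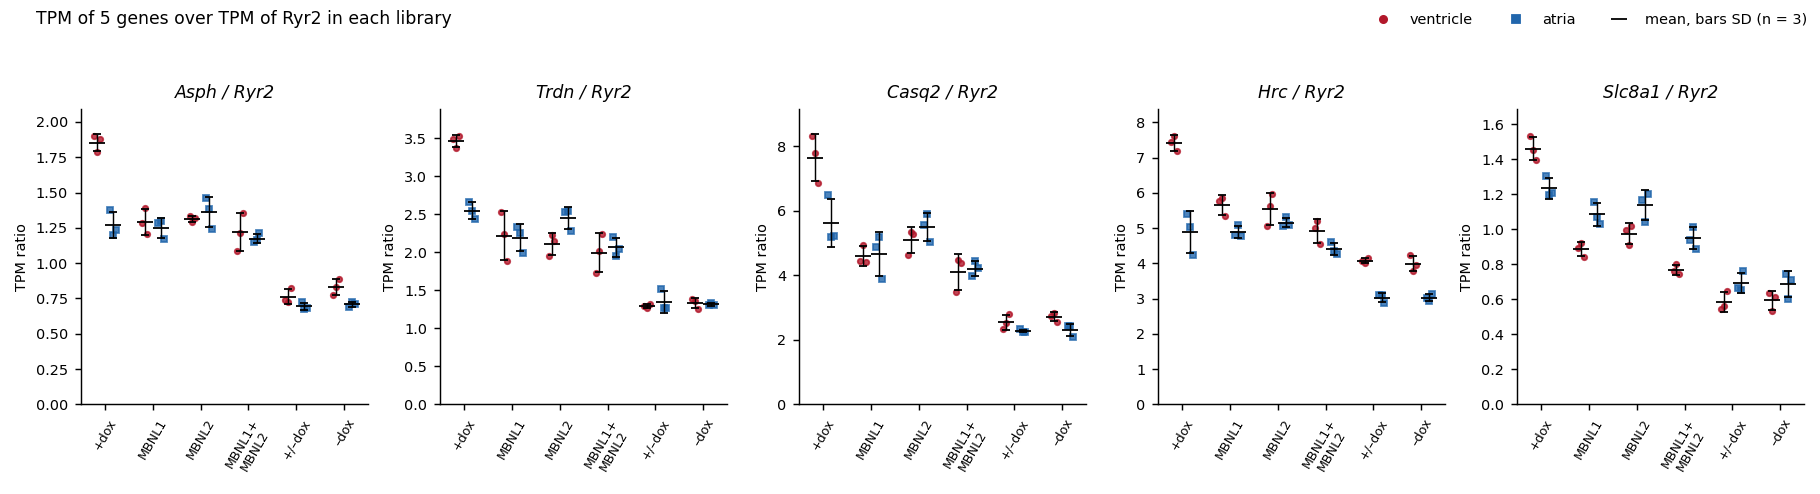
TPM of each member divided by the TPM of Ryr2 in the same library, for Asph, Trdn, Casq2, Hrc and Slc8a1, by chamber and cohort, with the mean and SD of 3 libraries on an axis from 0. For Casq2 the +dox ventricles lie between 6.85 and 8.32 and the –dox ventricles between 2.56 and 2.84, with the MBNL cohorts at 3.47 to 5.35.

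No member was called between any MBNL cohort and +dox mice. In ventricles, by the adjusted p-value alone, 3 members differed with MBNL1 (8.95% of all genes; 2.66% called with the fold), 2 with MBNL2 (7.43%; 1.52%) and 5 with both (8.34%; 2.65%). In each of them Ryr2 was higher and Asph lower than in +dox. The Asph log2 fold change was -0.34 with MBNL1 (adjusted p = 0.012), -0.39 with MBNL2 (adjusted p = 0.0063) and -0.34 with both in counts, and -0.11, -0.04 and -0.06 on the TPM scale, where none passed. With only the 6 libraries compared, the adjusted p of Asph counts was 0.064 with MBNL1 and 0.17 with both. The change with both also failed in 1 of 6 fits that left out 1 library. In atria no member differed at either threshold with MBNL1 (0.348% by adjusted p; 0.13% with the fold), MBNL2 (0.0104%; 0.0052%) or both (0.686%; 0.26%). Between the vector cohorts no member was called in ventricles, where 0.0156% (MBNL2 against MBNL1), 0% (both against MBNL1) and 0.026% (both against MBNL2) of all genes were, or in atria (0.0052%, 0% and 0.0104%).

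Against +/–dox mice, which no longer made the repeat RNA, Ryr2 was the 1 member called in ventricles with MBNL1 (0.868% of all genes) and with MBNL2 (1.57%), and none was called with both vectors (0.53%), where Asph was gained without MBNL1+MBNL2 replicate 1 and Ryr2 without +/–dox replicate 3. Asph counts were higher than in +/–dox ventricles by 0.52, 0.47 and 0.53 on the log2 scale with MBNL1, MBNL2 and both, each past the adjusted p. On the TPM scale these differences were 0.16, 0.23 and 0.22, and only that with MBNL2 passed (adjusted p = 0.037, limma). In atria Ryr2 was called lower with MBNL1 (1.21%), and with both vectors (1.71%). With MBNL2 Ryr2 was lower and Casq2 higher by 0.59, which made 2 members (3.24%). The atrial call with both vectors was lost when only the 18 atrial libraries were fitted, and without MBNL1+MBNL2 replicate 1 or +/–dox replicate 2. Casq2 was no longer called with MBNL2 without MBNL2 replicate 2, or without +/–dox replicate 1 or 3. No member was called between –dox and +/–dox mice, in ventricles (0.0312%) or in atria (0.0104%).

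Within a cohort the chambers were compared too. In –dox mice Fkbp1b was the 1 member called between ventricle and atria, lower in the ventricle by 1.04 on the log2 scale, beside 24.9% of all genes, and Hrc was called too without atria –dox replicate 1. That Fkbp1b call was lost without ventricle –dox replicate 2 or 3 or atria –dox replicate 3, with differences of -1.28 to -0.62 over the 6 such fits, and was -0.59 (adjusted p = 0.39) in the first library set alone. In +dox mice 2 were called, Fkbp1b (lower by 1.11) and Itpr1 (lower by 0.68), beside 25%. There Fkbp1b was lost without ventricle +dox replicate 2 or 3, and Trdn was gained without atria +dox replicate 1. With each animal number of a cohort as a block the –dox Fkbp1b difference was -0.99 and was not called (adjusted p = 0.052). By the adjusted p-value alone 6 members differed in –dox (42.6% of all genes) and 7 in +dox mice (43.6%). The direction of several of these rests on the scale: TMM-normalised counts put Trdn (0.34), Casq2 (0.38) and Itpr2 (0.57) higher in –dox ventricles than in –dox atria, whereas TPM gave -0.38, -0.16 and -0.00055. In +dox mice Asph (0.30), Trdn (0.54), Casq2 (0.32), Hrc (0.47) and Itpr2 (0.31) were likewise higher in ventricles by counts, and -0.11, -0.22, -0.22, -0.055 and -0.20 by TPM. The median gene was lower in ventricles by 0.379 in –dox and 0.365 in +dox mice on the TPM scale, so on that scale Trdn in –dox mice was at the median gene and the other members just named were above it. Fkbp1b and Itpr1 were lower in ventricles on both.

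In the levels per length Hrc and Casq2 were the most abundant members in each chamber of –dox mice and Fkbp1b the least. In –dox ventricles Casq2, at 397 ± 34.3 TPM (SD, n = 3), stood above Trdn at 195 ± 13.01, Ryr2 at 146 ± 6.35, Asph at 121 ± 10.9 and Slc8a1 at 86.7 ± 4.40 TPM. In +dox ventricles Ryr2, at 78.8 ± 1.06 TPM, had moved below both Asph (146 ± 6.80) and Slc8a1 (115 ± 5.88). Atrial Ryr2 at 125 ± 6.69 TPM likewise lay below Asph (158 ± 5.35) and Slc8a1 (154 ± 4.24) in +dox mice, and above both in –dox mice (192 ± 4.21 against 136 ± 3.61 and 132 ± 15.1 TPM).

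The paralogs of the members were mostly rare in this tissue. Among 7, 2 were called in –dox ventricles (7.6% of all genes), both lower, and 1 in +/–dox ventricles (6.6%), with list medians of -0.20 and -0.35. Ryr1, the skeletal muscle release channel, went from 0.167 TPM in +dox to 0.0533 TPM in –dox ventricles (log2 fold change -1.64), and Slc8a3, a further sodium-calcium exchanger, from 0.387 to 0.080 TPM (-2.33). In –dox atria (5.23% of all genes called) Slc8a3 was also called lower (-1.52) and Ryr3 higher (1.06, from 1.98 to 3.99 TPM). No paralog was called in +/–dox atria (3.99%). With MBNL1 ventricular Slc8a3 was called lower by 1.64. Casq1, the skeletal muscle calsequestrin, Fkbp1a, Itpr3 and Slc8a2 were not called in any cohort against +dox.

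Of 18 junctional partners and regulators of the channel, 2 were called in –dox ventricles (7.6% of all genes), both higher, and the list's median log2 fold change was 0.02. They were Cmya5, a large protein of the junction between tubule and store membranes (0.80), and Jph1, a junctophilin that ties these membranes together (0.65). By the adjusted p-value alone 5 were higher and 1 lower, beside 20.9% of all genes. Cmya5 was also called higher in +/–dox ventricles (0.77) and in –dox (0.88) and +/–dox atria (1.02), and the kinase Speg in +/–dox ventricles (0.73). Tmem38b, a cation channel of the store, was called lower in +/–dox atria (-0.60).

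Of 10 genes of calcium entry and store refilling, 1 was called in –dox and 1 in +/–dox mice of each chamber. Over all genes 7.6% and 6.6% were called in ventricles and 5.23% and 3.99% in atria. The list medians were 0.06 and 0.09 in ventricles and 0.21 and 0.12 in atria. In ventricles it was Cacna1c, the pore of the L-type channel whose current opens RYR2, which rose by 0.63 in –dox and 0.65 in +/–dox mice. In atria it was Pln, phospholamban, the inhibitor of the store's calcium pump, which rose by 0.93 and 0.71. Ventricular Pln was at 3528, 3168 and 4056 TPM in +dox and 3377, 3403 and 3727 TPM in –dox mice, whereas the atrial values of 745, 778 and 825 TPM in +dox lay below those of 1217, 1305 and 1582 TPM in –dox mice. The pump gene itself, Atp2a2, had a log2 fold change of 0.29 (adjusted p = 0.014) in –dox ventricles and 0.31 (adjusted p = 0.011) in –dox atria. The highest sum of ventricular markers in a –dox atrium, 827 TPM, was 1 of 3 values that began at 56.9 TPM, and the part of this in the Pln level was not tested.

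Of 10 genes of the IP3 pathway 9 were tested, Chga being too low. In –dox ventricles Adra1a, an alpha-1 adrenergic receptor that couples to IP3, was called higher (1.16, from 3.52 to 7.70 TPM) and Agtr1a, an angiotensin receptor, lower (-0.99, from 41.6 to 20.4 TPM). By the adjusted p-value alone 5 were higher and 1 lower, with a list median of 0.29. Over all genes 7.6% were called there and 20.9% passed the adjusted p-value alone. Adra1a was called higher in +/–dox ventricles (1.07) and in both atrial comparisons (0.93 and 0.86) too, and Adra1b in +/–dox ventricles (0.62). Agtr1a was called lower in –dox atria (-0.83) and in MBNL1+MBNL2 ventricles (-0.61). Mrvi1, which binds IP3 receptors, was called lower in –dox (-0.97) and MBNL1+MBNL2 atria (-0.67).

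Other cell types gave few calls beside these changes. None of the fibroblast, endothelial or smooth muscle markers was called in –dox against +dox mice. The endothelial sum was still 157 to 174.2 TPM in +dox and 192.4 to 244.4 TPM in –dox ventricles, and 221.6 to 253.3 against 282.7 to 340.3 TPM in atria. The fibroblast sum was 1020 to 1255 against 1358 to 1453 TPM in atria. It overlapped in ventricles, as the smooth muscle sum did in both chambers. The part of these sums in the members' values was not tested. One macrophage marker was lower in –dox mice in each chamber. Of 5 autonomic neuron markers 2 were tested, and 1 was called higher than in +dox in –dox mice of both chambers and in +/–dox and MBNL2 ventricles. One of 3 Schwann cell markers was called higher in +/–dox ventricles. The sum of 4 red blood cell markers was 391.5 to 1237 TPM in +dox and 1834 to 4130 TPM in –dox ventricles, with none of the 4 called, and its part in the members' values was not tested.

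Over the 18 libraries of a chamber, the genes whose log2 CPM followed Ryr2 most closely in ventricles were Ubl4a (r = 0.957), Smim14 (0.949), Acot7 (0.939), Tmtc1 (0.939) and Coq8a (0.938), out of 8542 genes with at least 10 CPM. In atria they were Echs1 (0.97), Cmya5 (0.956), Lad1 (0.955), Tmtc1 (0.955) and Gm47155 (0.953), out of 8749. For Asph they were Dstn (0.976), Dnajc18 (0.958), Phtf2 (0.956), 9530068E07Rik (0.953) and Dnajb11 (0.948) in ventricles and Fez2 (0.975), Hdlbp (0.971), Itgb1 (0.97), Sccpdh (0.965) and Ints14 (0.965) in atria. Tmtc1 was in the Ryr2 list of both chambers. These coefficients are descriptions over libraries that fall into 6 cohorts and share cohort, depth and library set.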

How the data were processed

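Poly(A)-selected, stranded libraries of 18 ventricles and 18 atria were aligned by the authors to mm10 with STAR 2.7.10b and quantified with RSEM 1.3.1 (versions from the submitters' processing notes). The deposited expected counts are RSEM estimates per gene symbol, without scaling to depth. The deposited TPM, also from RSEM, divide by transcript length. Whether RSEM counted by strand is not given in the sources used here. Members, lists and comparisons were chosen with earlier results of these data known.

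Expected counts were rounded and tested with edgeR 4.0.16 (quasi-likelihood, TMM, filterByExpr, robust) in R 4.3.3, with 1 mean for each of 12 groups of 36 libraries. P-values were adjusted by Benjamini-Hochberg over the 19231 genes of a comparison. The log2 CPM used for correlations had a prior count of 2, and other CPM values had none. Log2(TPM + 0.5) and the ratio of expected count to TPM (genes at 5 TPM or more, cutoff 0.1 on the log2 scale, 9070 genes) were tested with limma 3.58.1, and ratios to Ryr2 with exact permutation tests. Changes between chambers are ventricle minus atria. The steps were tested on simulated data. Positions and sequences are from GENCODE M21 on GRCm38, whereas the authors give a later GENCODE release on the same assembly.

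Same-numbered ventricles and atria of a cohort deviated together in all 18 pairs (r = 0.112 to 0.685), and the study lists both chambers of the same animals. The chamber comparisons of counts were therefore also fitted with these 18 blocks. Those of effective length were not, so their tests treat the chambers of an animal as independent. Named genes are the 10 members in every comparison, their 7 paralogs, genes of 3 further lists where called against +dox, and the 5 genes most like Ryr2 and Asph in each chamber. One more list, with a gene that the rule would name, is not reported here. Atp2a2 and Clvs1 lie outside the rule and were chosen after their values were seen. Alternatives were another scaling (DESeq2 1.42.0 size factors), the DESeq2 Wald test, no filter, fewer libraries, library set as a term or the first set (set A) alone, replicate blocks, limma on TPM and each replicate left out. P-values measure the spread between animals of this study. Reads and splicing were not analysed here.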

Additional observations from a re-analysis of the deposited data

Results flagged for a closer look

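The change of 3 items differed between chambers by a test of the difference itself, taken as the ventricular minus the atrial change. For the log2 fold change of Pln the difference was -0.88 (adjusted p = 0.0018, edgeR's quasi-likelihood test) in –dox and -0.65 (adjusted p = 0.039) in +/–dox mice, both against +dox: atrial Pln was higher without the repeat RNA and ventricular Pln was not called. For Itpr1 it was 0.43 (adjusted p = 0.022) in +/–dox mice, where the atrial level was lower and the ventricular level overlapped +dox. That difference no longer passed in 6 of 12 fits that left out 1 library, nor on the TPM scale (adjusted p = 0.097, limma). For the effective length of Asph it was -0.35 in –dox (adjusted p = 0.00077, limma) and -0.35 in +/–dox mice (adjusted p = 0.00088), a shortening in both chambers that was larger in the ventricle. The length test did not pair the chambers of an animal. The –dox and +/–dox comparisons share the +dox libraries. Groups of 3 libraries were too small for a test of outlying samples.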

How the results depend on the processing

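Of 698 alternative counts of members called or changed in length, 645 were equal to or within 1.5 times the main count. These 645 include comparisons in which no member was called in either fit. A swap of members within that range does not show in them. Without the fold threshold the counts were 6, 5, 3, 2 and 5 in ventricles (–dox, +/–dox, MBNL1, MBNL2 and MBNL1+MBNL2 against +dox), 3, 2 and 2 for the vectors against +/–dox ventricles, 5 and 4 in atria of –dox and +/–dox mice, 3, 4 and 3 for the vectors against +/–dox atria, 6 and 7 between chambers (–dox and +dox), and 1 for the difference between chambers in +/–dox mice.

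With limma on TPM there was 1 member called in +/–dox ventricles (Asph lost), 2 in –dox ventricles (Asph and Itpr2 lost, Casq2 gained), 0 in MBNL2 ventricles and 0 in MBNL1+MBNL2 atria against +/–dox, and 3 between chambers in –dox mice. TPM also turned the direction between chambers of Trdn (-0.38), Casq2 (-0.16) and Itpr2 (-0.00055) in –dox and of Asph (-0.11), Trdn (-0.22), Casq2 (-0.22), Hrc (-0.055) and Itpr2 (-0.20) in +dox mice. The first library set (set A) alone gave 4 members in +/–dox ventricles and 1 between chambers in +dox mice. Library set as a term gave 1 for MBNL1+MBNL2 against +/–dox ventricles (Asph), 1 for MBNL2 and 0 for MBNL1+MBNL2 against +/–dox atria. The last was also 0 with the 18 atrial libraries alone and with the 6 compared. Between chambers in –dox mice the count was 2 with DESeq2 size factors, 2 with its Wald test, and 0 with no filter. The cause was not tested. The 18-level replicate block gave 0 there (Fkbp1b adjusted p = 0.052) and changed no other count of called members. It was not fitted to the lengths. Same-numbered libraries of different cohorts were not treated as pairs in the main fit. Within a chamber 53 of 90 such pairs had r above 0.1 (-0.292 to 0.62, median 0.156), against 50 of 180 differently numbered pairs (median -0.071). A 3-level replicate block left the count of –dox ventricles at 3 and changed no other.

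Leaving out single replicates, the count ran from 2 to 4 in +/–dox ventricles (Casq2 and Itpr2 gained without +/–dox replicate 3), 0 to 1 in MBNL1+MBNL2 against +/–dox ventricles, 1 to 2 in –dox atria (Casq2 lost without +dox replicate 1 or –dox replicate 3), 1 to 2 in +/–dox atria (without +dox replicate 1), 1 to 2 and 0 to 1 for MBNL2 and MBNL1+MBNL2 against +/–dox atria, 1 to 2 between chambers in –dox mice, where Fkbp1b was lost in 3 of 6 fits and other members gained, and 1 to 3 in +dox mice (Fkbp1b lost without ventricle +dox replicate 2 or 3, Trdn gained without atria +dox replicate 1). It ran from 2 to 4 in –dox ventricles. Counts of changed lengths ran from 1 to 2 in –dox ventricles (Trdn lost without –dox replicate 1 or 2), 1 to 2 in +/–dox ventricles (without replicate 1 or 2 of either cohort) and 1 to 2 between chambers (without –dox ventricle replicate 2 or atria replicate 3). The called Ryr2 changes against +dox kept their direction and call in all of these. A fit without the 2 libraries that stood apart, and ratios to Ryr2 in CPM, were added after the data were seen. Depth limits Fkbp1b, at 12 to 154 expected counts a library.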
